A study of Mus musculus with 15 samples.

Results

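Nepn, Fndc3c1, Cysltr2 and Nefl are 4 of the 19938 mouse genes that had a probe set of their own on the arrays used here. They were picked because their signal in the early embryonic pancreas, at e10.5 (e for embryonic day), was high and was much lower in later cells of the same reporter line. They were chosen by their log2 levels in the e10.5 arrays and the drop to the Sox9-GFP+ arrays of later stages. Their e10.5 signal and its later loss are therefore given as a description, without a test. All 4 genes were among the 16883 that passed a filter on dim values, an intensity above 97.8 in at least 3 arrays. Fndc3c1 and Cysltr2 passed it only with the e10.5 arrays counted, whereas Nepn and Nefl also had at least 3 later arrays above it. The study sorted pancreatic cells by a green fluorescent reporter and profiled 5 groups with n = 3 arrays each. Sox9-EGFP males had been mated to wild-type CD1 females, and GFP-high cells, in which the reporter marks cells that express the progenitor and duct factor Sox9, were taken from embryos at e10.5 and e15.5 and from pups at postnatal day 23 (p23). GFP-negative (GFP-) cells of the same Sox9-EGFP pups formed the fourth group, and GFP-high cells of Ngn3-EGFP embryos at e15.5, sired likewise on CD1 females, formed the last. All groups came from reporter matings, and the labels name no drug and no deletion. Several animals were pooled for each sort, so errors and p-values measure the spread between arrays of pooled animals, and 3 arrays per group limit the precision of each value.

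The mouse pancreas buds from the foregut endoderm, and its early epithelium consists of progenitors that later give rise to acinar, ductal and endocrine cells. Endocrine precursors pass through a state with Neurog3 (also called Ngn3), while Sox9 is kept in progenitors and then in ducts. Nepn (nephrocan) encodes a secreted small leucine-rich protein that reduced TGF-beta signalling in cultured cells and is known from the endoderm of the early mouse embryo. Fndc3c1 belongs to a family of membrane-anchored proteins with fibronectin type III domains, Cysltr2 is a G protein-coupled receptor for cysteinyl leukotrienes, and Nefl is the light subunit of the neurofilaments, the intermediate filaments of axons.

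The sequences upstream of the genes are shown because 3 of the 4 promoters could be set side by side for genes that were high in the same e10.5 arrays. They are the 250 bases before the annotated start in RefSeq on GRCm38.p6, read 5′ to 3′ on the gene's strand, and 3 of 4 genes matched. The Nepn promoter lies at chr10:52391358-52391607 on the plus strand, that of Fndc3c1 at chrX:106485230-106485479 on the minus strand and that of Cysltr2 at chr14:73049115-73049364 on the minus strand. Capitals mark letters that match 1 of 6 short motifs searched on both strands.
Nepn: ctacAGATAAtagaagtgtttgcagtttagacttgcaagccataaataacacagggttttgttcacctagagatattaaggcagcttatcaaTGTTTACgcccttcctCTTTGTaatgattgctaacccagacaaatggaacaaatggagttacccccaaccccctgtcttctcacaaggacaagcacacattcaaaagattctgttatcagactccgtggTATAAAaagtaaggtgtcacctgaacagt
Fndc3c1: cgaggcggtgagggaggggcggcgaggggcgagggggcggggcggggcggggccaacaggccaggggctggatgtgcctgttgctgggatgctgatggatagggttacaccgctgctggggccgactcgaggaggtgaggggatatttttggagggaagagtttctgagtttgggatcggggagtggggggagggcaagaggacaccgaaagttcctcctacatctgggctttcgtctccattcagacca
Cysltr2: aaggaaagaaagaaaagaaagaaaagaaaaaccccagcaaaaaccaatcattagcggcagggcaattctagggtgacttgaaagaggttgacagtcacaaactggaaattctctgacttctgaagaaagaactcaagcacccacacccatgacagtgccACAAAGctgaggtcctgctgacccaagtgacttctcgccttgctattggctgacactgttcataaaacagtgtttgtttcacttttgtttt
A TATA box was searched as TATAAA. For FOXA factors the search used TGTTTAC, and for GATA factors it used AGATAA. The SOX core was taken as ACAAAG. For homeodomain proteins the letters were TAATTA, and for the Notch effector RBPJ they were TGGGAA. None of the matches overlapped another. The Nepn promoter held TATAAA at 29 to 24 bases before the start, which 12.4% of 32851 promoters of the same length held. It also held TGTTTAC at 158 to 152 bases (3.17% of promoters), AGATAA at 246 to 241 bases (9.99%) and CTTTGT, the reverse of the SOX core, at 142 to 137 bases (16.5%). The Cysltr2 promoter held ACAAAG at 91 to 86 bases, and the letters of the other motifs were not in its window. The Fndc3c1 window held none of the 6. TAATTA (4.84% of promoters) and TGGGAA (21.6%) were in none of the 3 windows. Base composition differed as well. The Fndc3c1 window was 64% G and C with 14 CpG, against 40.4% and 2 CpG for Nepn and 42.8% and 2 CpG for Cysltr2, and the median of all promoters was 52.4% with 6 CpG. A match is a run of letters and not a shown binding site.

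Arrays of the same group correlated at 0.952 to 0.996 over all genes, with the Ngn3-GFP+ arrays the least alike. Sox9 followed the sort at p23, with log2 levels of 11.62 to 12.10 in GFP+ and 8.68 to 10.08 in GFP- arrays. Of 14 ductal markers, 12 were higher in GFP+ p23 cells by limma at an adjusted p under 0.05, against 21.5% of all genes. Acinar enzymes did not separate the p23 sorts, with 0 of 12 called against 36% of all genes. Their list means were 13.26 to 13.45 in GFP+ and 13.59 to 13.68 in GFP- arrays. Neurog3 did not separate the e15.5 sorts, with 11.53 to 12.21 in Ngn3-GFP+ and 11.66 to 12.12 in Sox9-GFP+ arrays. Embryonic globin (Hbb-y) was at 10.48 and 11.20 in arrays 1 and 2 of e10.5 and at 9.98 in array 1 of Sox9-GFP+ e15.5, and between 5.85 and 6.35 in the other arrays. Without these 3 globin-bearing arrays, comparisons with e10.5 rest on its array 3 alone, which limma then assumes to vary like the other groups. In comparisons with Sox9-GFP+ e15.5, arrays 2 and 3 of that group are left. Levels here and below are log2(intensity + 16) of a gene's own probe set, a scale that understates the change of dim genes and does not allow levels of different genes to be compared. The filter intensity corresponds to 6.83 on it.

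Nepn had the largest excess at e10.5 of all genes tested. Its levels were 13.75, 13.57 and 13.23 in the e10.5 arrays. The Sox9-GFP+ arrays of e15.5 read 7.51, 6.65 and 7.19, and the Ngn3-GFP+ arrays 7.13, 6.37 and 6.60. At p23 the sorted Sox9-GFP+ arrays read 6.30, 6.41 and 6.22, the GFP- arrays 6.34, 6.61 and 6.35. Every e10.5 array thus lay far above the other 12, and both p23 groups stayed below the filter intensity in all arrays. As mean intensity, Nepn went from 11800 ± 2110 (SD, n = 3) at e10.5 to 127 ± 40.8 in the Sox9-GFP+ sort of e15.5, a ratio of 93.1, and the ratio of e10.5 to Sox9-GFP+ p23 was 186, with the p23 arrays below the filter intensity. The later groups ordered as Sox9-GFP+ e15.5 (7.12 ± 0.43), Ngn3-GFP+ (6.70 ± 0.39), GFP- (6.43 ± 0.15) and Sox9-GFP+ p23 (6.31 ± 0.09), and each overlapped the next. In bulk sorted cells, fewer cells that express a gene and less of its RNA per cell cannot be told apart.

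**Figure D1:**
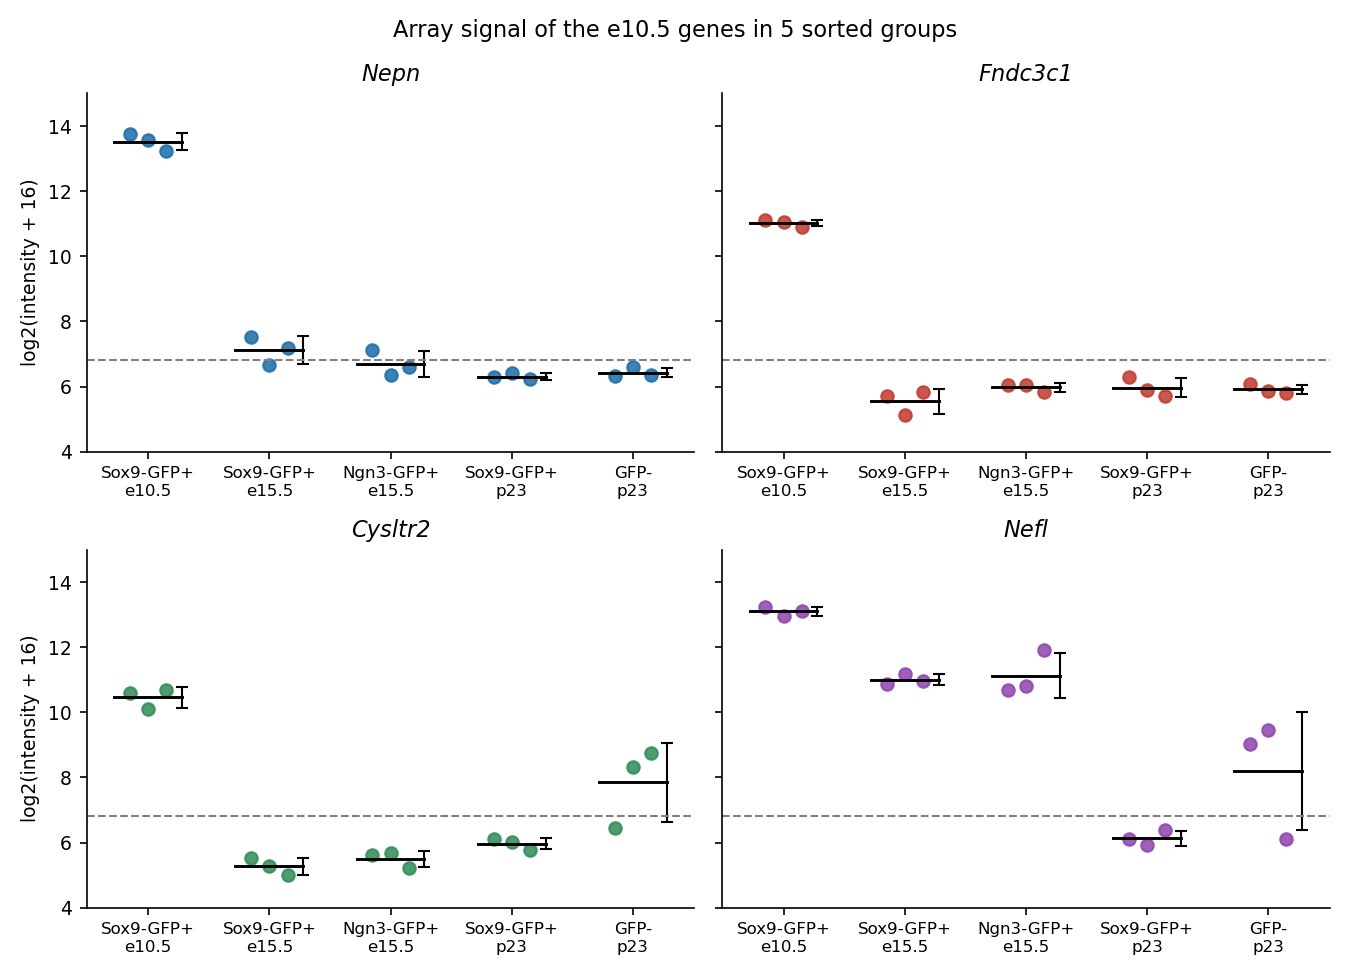
Level of each gene as log2(intensity + 16) in the 15 arrays, by sorted group. Points are arrays, horizontal bars the group mean, error bars the SD (n = 3), and the dashed line the filter intensity at 6.83. The 3 e10.5 arrays lie above all others for each gene, Nefl stays near 11 at e15.5, and only Cysltr2 and Nefl have GFP- arrays above the line at p23.

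Other small leucine-rich proteoglycans did not share this course. The list of the family was chosen with earlier results known, and 15 of its 18 other genes were tested. From e10.5 to p23 in Sox9-GFP+ cells, 9 of the 15 rose and 0 fell by limma at an adjusted p under 0.05, against 17.7% and 23.3% of all genes (41% in either direction). Their median log2 difference was 0.49, that of all genes -0.01. The genes Dcn, Bgn, Aspn, Ecm2, Lum, Ogn and Chad had e10.5 means below the filter level of 6.83, so they could hardly fall. Nothing is therefore read from the absence of falls. Decorin (Dcn), which binds collagen and TGF-beta, went from 6.43 to 10.47 (difference 4.04 ± 0.35 SE, adjusted p = 4.48e-07 by limma). Biglycan (Bgn), its close relative, rose by 3.84 ± 0.32 (adjusted p = 2.68e-07 by limma), and Prelp, a basement membrane anchor protein, by 3.51 ± 0.18 (adjusted p = 2.71e-09 by limma). Without the globin-bearing arrays, with 1 e10.5 array left, the count was 4 risen and 0 fallen. Against GFP- cells at p23, 4 of the 15 were higher in Sox9-GFP+ cells and 7 lower, where 21.5% and 14.5% of all genes were. These were 2 and 4 without GFP- array 1, and 2 and 3 without GFP- array 2. Markers of mesenchyme and mesothelium moved over the same interval from e10.5, where 6 of 19 rose and 2 fell (3 and 1 without the globin-bearing arrays). Their mean level over the list was 7.62 to 7.65 at e10.5 and 7.90 to 8.06 in the Sox9-GFP+ sort of p23, and 0 of the 19 lay below the filter intensity in all arrays of the latter. Postn, a matrix protein of fibroblasts, rose by 2.78 ± 0.29 (adjusted p = 2.99e-06 by limma). The part of mesenchymal cells in the proteoglycan values was not tested. By e15.5, 3 had risen and 2 had fallen, against 12.2% and 16% of all genes (28.2% either way). Dcn (3.18 ± 0.35, adjusted p = 2.9e-05) and lumican (Lum), a collagen-binding member (2.40 ± 0.43, adjusted p = 0.00173), were among those that rose by limma. These e15.5 counts moved to 2 risen and 0 fallen without e10.5 array 2 or without Sox9-GFP+ e15.5 array 3. They were 2 and 1 without Sox9-GFP+ e15.5 array 2, and 3 and 0 with a filter at the median intensity. No tested relative had e10.5 arrays above all others. The nearest was opticin (Optc), a member known from the eye, whose mean at e10.5 was 0.18 above its next highest group mean.

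Genes of TGF-beta signalling, the pathway that nephrocan was reported to reduce, were counted from a list of 19. By e15.5 4 had fallen and 0 had risen, against 16% and 12.2% of all genes. The 4 were the TGF-beta receptors Tgfbr1 (-0.48) and Tgfbr3 (-0.33) and the latent TGF-beta binding proteins Ltbp1 (-1.18) and Ltbp2 (-0.35). The count of fallen genes was 1 without the globin-bearing arrays, and also without e10.5 array 2, e10.5 array 3, Sox9-GFP+ e15.5 array 2 or Sox9-GFP+ e15.5 array 3. From e15.5 to p23, 13 rose and 2 fell, against 30.7% and 26.8% of all genes (57.5% either way). The ligand Tgfb3 rose by 3.21 (adjusted p = 3.16e-07 by limma), the ligand Tgfb2 by 2.59 (2.45e-07) and the secreted matrix protein gene Ccn2 by 1.53 (3.93e-05). The nuclear mediators Smad2 and Smad4 differed by 0.01 and 0.04 and did not pass. Markers of other cell types moved over this interval too. Of 16 endothelial markers 15 rose and 1 fell (6 and 1 after quantile normalization, 7 and 1 with a filter at the median intensity), with list means of 6.81 to 6.91 at e15.5 and 7.30 to 7.56 at p23. Of 18 leukocyte markers 11 rose and 0 fell, with list means of 6.89 to 7.01 and then 7.55 to 8.03. The leukocyte count was 7 after quantile normalization or without Sox9-GFP+ e15.5 array 2, and 6 without Sox9-GFP+ p23 array 2. Of the 19 mesenchyme and mesothelium markers 8 rose and 0 fell, or 5 without Sox9-GFP+ p23 array 2, with list means of 7.58 to 7.80 and then 7.90 to 8.06. Their part in the TGF-beta counts was not tested.

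Fndc3c1 was measured at a clear level only at e10.5. Its levels there were 11.11, 11.04 and 10.91. At e15.5 the Sox9-GFP+ arrays read 5.70, 5.12 and 5.85, and the Ngn3-GFP+ arrays 6.05, 6.06 and 5.83. At p23 the Sox9-GFP+ arrays read 6.29, 5.90 and 5.71, the GFP- arrays 6.08, 5.88 and 5.81. All 12 later arrays lay below the filter intensity, and the 4 later groups overlapped each other's neighbours in their order (means 5.56 to 5.98). Mean intensity was 2070 ± 145 (SD, n = 3) at e10.5 and 32.1 ± 12 in the Sox9-GFP+ sort of e15.5, a ratio of 64.4 that rests on a dim denominator.

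The family members Fndc3a, needed for spermatid adhesion in the mouse, and Fndc3b, an adipogenesis-associated gene, were tested. Neither passed between e10.5 and e15.5, where they differed by 0.05 ± 0.14 (adjusted p = 0.794 by limma) and 0.14 ± 0.16 (adjusted p = 0.512 by limma). From e15.5 to p23 both fell, by 0.45 and 0.47 (adjusted p = 0.013 and 0.0193 by limma), whereas neither call held without Sox9-GFP+ e15.5 array 2, and 1 of the 2 calls was left after quantile normalization and without the globin-bearing arrays, Sox9-GFP+ e15.5 array 3, Sox9-GFP+ p23 array 2 or p23 array 3. Their group means spanned 10.94 to 11.81 for Fndc3a and 8.88 to 10.28 for Fndc3b. Among 7 other genes named for the same domain, only Fndc4 had e10.5 arrays above all others, with an excess of 0.28.

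Cysltr2 was high at e10.5, and among the later arrays it was above the filter intensity in 2, both of GFP- cells at p23. Its levels were 10.58, 10.10 and 10.70 at e10.5. Sox9-GFP+ arrays of e15.5 read 5.52, 5.29 and 5.0, and Ngn3-GFP+ arrays 5.62, 5.67 and 5.22. The p23 values were 6.11, 6.03 and 5.77 for the Sox9-GFP+ sort, with GFP- arrays at 6.46, 8.33 and 8.76. The GFP- arrays did not overlap the Sox9-GFP+ p23 arrays, which in turn lay above both e15.5 groups, and the e15.5 groups overlapped. Mean intensity was 1410 ± 291 (SD, n = 3) at e10.5, 23 ± 7.02 in the Sox9-GFP+ sort of e15.5 and 265 ± 176 in GFP- cells. The ratio of e10.5 to GFP- cells was 5.33. That of e10.5 to Sox9-GFP+ e15.5 was 61.5, with a denominator below the filter intensity in all arrays.

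The second leukotriene receptor gene, Cysltr1, stayed near the filter intensity, with group means of 6.54 at e10.5, 6.11 and 6.46 at e15.5 and 6.63 and 6.96 at p23. Of 11 tested genes of leukotriene synthesis and reception, 3 fell by e15.5 and 1 by p23 relative to e10.5, where 16% and 23.3% of all genes fell, and 0 rose at either stage, against 12.2% and 17.7%. The 3 were Cysltr1 (-0.43), the leukotriene B4 receptor gene Ltb4r1 (-0.49) and Dpep1 (-0.40), which encodes a dipeptidase that cleaves leukotriene D4. Cysltr1 lay below the filter intensity in all e10.5 and Sox9-GFP+ e15.5 arrays, so its difference is between dim values. None of the 3 passed after quantile normalization, nor without e10.5 array 2, Sox9-GFP+ e15.5 array 2 or Sox9-GFP+ e15.5 array 3. The count was 6 without e10.5 array 1, 1 without e10.5 array 3 and 5 in a fit of the 2 groups alone. The call at p23 was Lta4h, the hydrolase that makes leukotriene B4 (-0.65, adjusted p = 0.00357 by limma), and 0 passed without the globin-bearing arrays. Alox5, the lipoxygenase that starts the pathway, had means of 6.94 at e10.5 and 6.73 in the Sox9-GFP+ sort of e15.5. Ltc4s, the synthase of the cysteinyl leukotriene C4, had 7.03 and 6.71. Neither passed (adjusted p = 0.314 and 0.063 by limma).

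Nefl differed from the other 3 genes in that it stayed high at e15.5. Its levels were 13.24, 12.97 and 13.11 at e10.5. At e15.5 the Sox9-GFP+ sort read 10.86, 11.18 and 10.97, the Ngn3-GFP+ sort 10.68, 10.80 and 11.91. Arrays of p23 read 6.10, 5.93 and 6.38 for Sox9-GFP+ and 9.04, 9.45 and 6.12 for GFP- cells. The e15.5 groups overlapped each other and lay above all p23 arrays. Mean intensity was 8820 ± 819 (SD, n = 3) at e10.5 and 2050 ± 235 in the Sox9-GFP+ sort of e15.5, a ratio of 4.3. From e15.5 to p23 the Sox9-GFP+ sorts gave 37.3, with the p23 arrays all below the filter intensity. In the other 3 genes the step from e10.5 to e15.5 was the large one, with 6.40 for Nepn, 5.47 for Fndc3c1 and 5.19 for Cysltr2 against 2.10 for Nefl on the log2 scale.

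The medium subunit gene Nefm, which was not chosen for its course, had levels of 10.40 to 10.52 at e10.5 and 9.50, 9.43 and 8.87 in the Sox9-GFP+ sort of e15.5. In the Ngn3-GFP+ sort it was at 10.26, 11.19 and 10.30, and between 4.63 and 6.22 in all p23 arrays. It fell by 1.2 ± 0.32 from e10.5 to e15.5 in Sox9-GFP+ cells (adjusted p = 0.0162 by limma). That call did not hold without the globin-bearing arrays, where the difference was -1.36 ± 0.54 with 1 e10.5 array left (adjusted p = 0.0978 by limma), without e10.5 array 3 (0.0584) or without Sox9-GFP+ e15.5 array 3 (0.0803). From e15.5 to p23 it fell by 4.34 ± 0.32 (adjusted p = 1.57e-07 by limma). Unlike Nefl, its e10.5 arrays overlapped the Ngn3-GFP+ arrays. The other tested filament genes moved less. Of the 8 tested filament genes, Nefm included, 2 had risen by p23 relative to e10.5 and 1, Nefm itself, had fallen. The shares of all genes were 17.7% and 23.3%, and the counts were 2 and 3 after quantile normalization. The heavy subunit gene Nefh and the alpha-internexin gene Ina, both partners in axonal filaments, differed by -0.25 and -0.36 and did not pass (adjusted p = 0.0923 and 0.0604 by limma), while vimentin (Vim), a filament of mesenchyme and progenitors, rose by 0.48 (adjusted p = 0.00188 by limma).

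**Figure D2:**
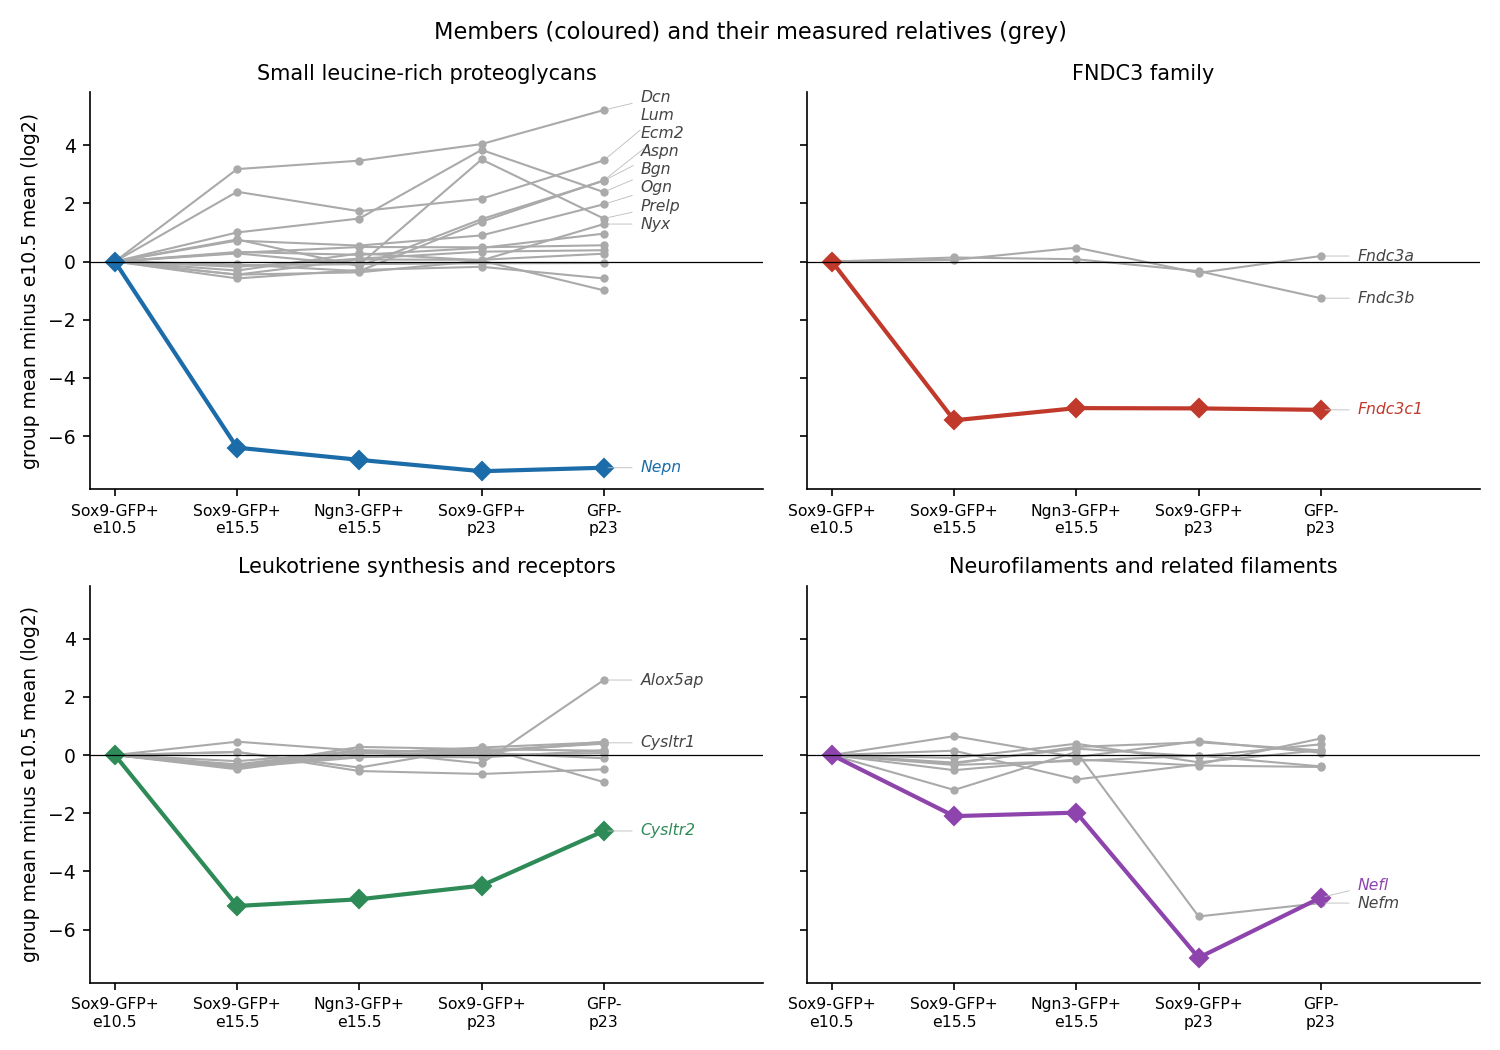
Group mean minus the e10.5 mean of the same gene, in log2 units, for the 4 genes (coloured diamonds) and the tested genes of each family or pathway list (grey circles). Lines link values of 1 gene and mark no time course between the sorts. Nepn ends below its relatives, several of which lie above 0 at p23, and Nefm is the grey line that ends near Nefl.

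The comparison of endocrine-committed with Sox9-high cells at e15.5 asked which genes go with endocrine differentiation, and the Sox9-GFP+ arrays in it were among those the choice of the genes had used. 0 of the 4 genes passed the test in limma, where 41.7% of all genes did. Fndc3c1 and Cysltr2 lay below the filter intensity in all arrays of both groups, so nothing is read from this count and the differences of those genes are between dim values. Nepn was lower in Ngn3-GFP+ cells by -0.42 ± 0.22 (SE, 95% interval -0.89 to 0.05, adjusted p = 0.136 by limma), Fndc3c1 differed by 0.42 ± 0.18 (0.03 to 0.81, adjusted p = 0.077 by limma), Cysltr2 by 0.23 ± 0.42 (-0.65 to 1.12, adjusted p = 0.664 by limma) and Nefl by 0.12 ± 0.61 (-1.18 to 1.43, adjusted p = 0.882 by limma). The arrays of both groups overlapped for each gene. Without adjustment, 1 of the 4, Fndc3c1, passed the 0.05 level in limma, with dim values in both groups. The share of all genes at that unadjusted level is not given, so nothing is read from this count either. For Nepn the call depended on the setting. It passed after quantile normalization (-0.64, adjusted p = 0.0308 by limma), without Sox9-GFP+ e15.5 array 2 (-0.65, 0.0402) and without Ngn3-GFP+ array 1 (-0.63, 0.0376). The Nefl difference was -0.27 without Ngn3-GFP+ array 3, which held the highest value. Nefm rose in Ngn3-GFP+ over Sox9-GFP+ cells by 1.31 ± 0.32 (adjusted p = 0.00786 by limma), with all Ngn3-GFP+ arrays above all Sox9-GFP+ arrays. Among the 8 filament genes, Nefm included, 4 were higher and 2 lower, against 23.3% and 18.4% of all genes. With a filter at the median intensity 1 was higher and 1 lower. Whether the Nefm and Nefl differences differ from each other was not tested.

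At p23 the comparison set Sox9-high cells against GFP- cells. Of the 4 genes 2 passed, both lower in Sox9-GFP+ cells, where 14.5% of all genes were lower and 36% passed in either direction. The genes had been chosen partly for low levels in these Sox9-GFP+ arrays, which favours a lower value there, and Cysltr2 passed the filter through its e10.5 arrays. Nothing is therefore read from the count, and the p-values below are not independent of the choice. Cysltr2 was lower by -1.88 ± 0.42 (SE, 95% interval -2.77 to -0.99, adjusted p = 0.00236 by limma), with no overlap between 3 and 3 arrays. Under the 15 alternatives, which reuse the same arrays and so add no support, its difference lay between -2.58 and -1.38. Nefl was lower by -2.07 ± 0.61 (-3.37 to -0.76, adjusted p = 0.0152 by limma), yet GFP- array 3 lay within the Sox9-GFP+ range. In this comparison all genes had a median difference of 0.07, and of -0.06 after median centring, where the differences were -2.02 for Cysltr2 and -2.20 for Nefl. The Nefl call did not hold in a fit of the 2 groups alone (adjusted p = 0.0542 by limma), without GFP- array 1 (-1.65, 0.0748) or without GFP- array 2 (-1.45, 0.0861), and without GFP- array 3 the difference was -3.11. Nepn differed by -0.12 ± 0.22 (-0.59 to 0.35, adjusted p = 0.713 by limma). For Fndc3c1 the difference was 0.05 ± 0.18, and its sign turned after quantile normalization (-0.07) and median centring (-0.09). Nepn and Fndc3c1 lay below the filter intensity in all arrays of both groups, so their differences are between dim values.

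Markers of other cell types moved with the p23 sort. Of 18 leukocyte markers, 13 were lower and 0 higher in Sox9-GFP+ cells, against 14.5% and 21.5% of all genes, with a mean level over the list of 7.55 to 8.03 against 9.70 to 9.99 in GFP- arrays, where none of the 18 was below the filter intensity in all 3 arrays. Ptprc, the common leukocyte antigen CD45, was at 14.28, 14.41 and 14.64 in the GFP- arrays. Siglecf and Ccr3, eosinophil genes, had group means of 9.38 and 6.74 in Sox9-GFP+ and 9.61 and 6.76 in GFP- cells. They did not pass (adjusted p = 0.156 and 0.959 by limma). Both Ccr3 means lay below the filter level of 6.83, so its difference is between dim values. Of 16 endothelial markers, 8 were lower and 0 higher, with list means of 7.30 to 7.56 against 8.05 to 8.34. Of the 19 mesenchyme and mesothelium markers, 7 were lower and 2 higher, with list means of 7.90 to 8.06 against 8.39 to 8.56. The mesenchyme counts were 4 lower and 1 higher without Sox9-GFP+ p23 array 1 or GFP- array 2, and 3 and 2 without GFP- array 1. Thy1, a surface protein of fibroblasts that T cells and neurons also carry, was lower by -3.87 ± 0.20 (adjusted p = 2.37e-09 by limma). Alox5ap, the partner protein of the 5-lipoxygenase, was also lower in Sox9-GFP+ cells, by -2.87 ± 0.21 (adjusted p = 6.22e-08 by limma), within a leukotriene list of which 1 gene was higher and 2 were lower. After quantile normalization 1 was higher and 5 were lower, and after median centring 1 was higher and 4 were lower. For Nefl, the list of 22 neuron and neural crest markers stood at 7.14, 6.87 and 6.90 in GFP- arrays 1 to 3 and at 7.09 to 7.25 in Sox9-GFP+ arrays, and the list of 20 endocrine genes at 7.77, 7.51 and 7.34 against 7.21 to 8.08. The part of these cells in the Cysltr2 and Nefl values was not tested.

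The same lists were read at e10.5. The neuron and neural crest list averaged 7.97 to 8.13 in e10.5 arrays and 7.95 to 8.08 in Sox9-GFP+ arrays at e15.5, and 2 of its 22 genes rose and 3 fell between them, against 12.2% and 16% of all genes. The counts were 1 and 2 without the globin-bearing arrays. Leaving out e10.5 array 1 gave 2 and 6, leaving out Sox9-GFP+ e15.5 array 1 gave 1 and 2, and leaving out any 1 of the other 4 arrays gave 1 and 1. Th, the catecholamine-synthesis enzyme, fell by 1.15 (adjusted p = 0.000176 by limma), while the neuronal genes Elavl4 and Tubb3 differed by 0.10 and 0.53 and did not pass (adjusted p = 0.658 and 0.17 by limma). From e10.5 to p23, 3 rose and 9 fell, where 17.7% and 23.3% of all genes did, with Tubb3 lower by -4.35 and Elavl4 by -3.46. The list of endocrine genes averaged 10.26 to 10.51 at e10.5, 11.05 to 11.59 in Sox9-GFP+ and 12.05 to 12.15 in Ngn3-GFP+ cells at e15.5. Of 11 liver bud markers, 0 rose and 6 fell by e15.5 and 0 rose and 9 fell by p23, where 16% and 23.3% of all genes fell. Their mean level was 10.23 to 10.53 at e10.5 and 8.68 to 9.20 in the Sox9-GFP+ sort of e15.5. In the Ngn3-GFP+ arrays it was 9.20, 10.10 and 8.66. Fgg, a fibrinogen chain, fell by 3.65 (adjusted p = 6.77e-07 by limma), and Afp, the fetal serum protein, by 2.28 (adjusted p = 0.0234 by limma). The part of these cells in the e10.5 values was not tested. Without the 3 arrays with Hbb-y above 9, and so with e10.5 array 3 alone, the e10.5 excess was 6.30 for Nepn, 4.94 for Fndc3c1, 2.84 for Cysltr2 and 1.98 for Nefl.

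This e10.5 excess is the mean level of a gene at e10.5 minus its highest mean among the other 4 groups. It was 6.40 for Nepn, 5.05 for Fndc3c1, 2.61 for Cysltr2 and 1.98 for Nefl, which placed them at ranks 1, 2, 10 and 19 of 16883 genes. The median of all genes was -0.24, and 18% of genes had their highest mean at e10.5. In 769 genes, 4.55%, the lowest e10.5 array lay above all 12 others. In 92, 0.545%, the excess was also at least 1, and in 18, 0.107%, it was at least 2. The choice of the 4 genes used these values, so the ranks carry no further support. Between Fndc3c1 and Cysltr2 stood Lin28b, an RNA-binding protein that blocks maturation of let-7 microRNAs (4.25, rank 3), Fgg (3.43), the retinoic acid carrier Crabp2 (3.34), the reticulon Rtn1 (2.88), the secreted phosphoprotein Spp2 (2.87) and the transcription factor Sox11 (2.67). The next after Cysltr2 were Prtg (2.52), an early embryonic adhesion receptor, Afp (2.28), the mitochondrial adenylate kinase Ak4 (2.24) and the estrogen-induced gene Greb1 (2.13).

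**Figure D3:**
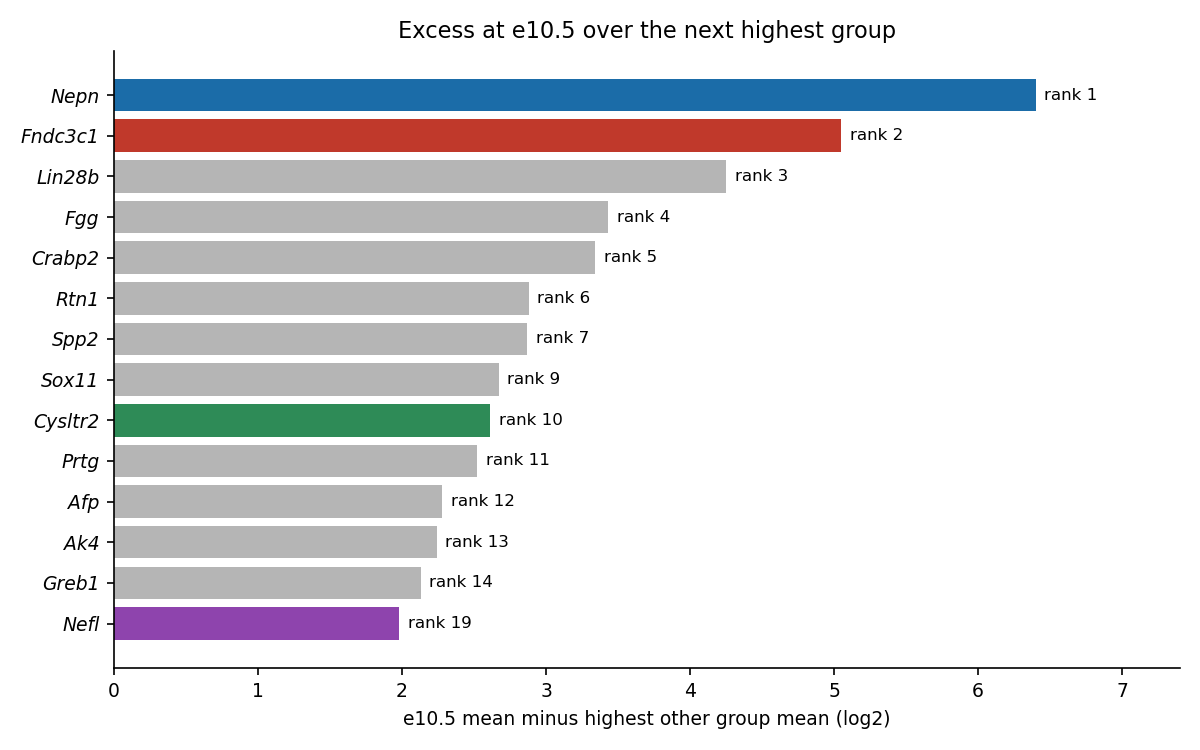
Excess at e10.5 in log2 units (horizontal bars from 0) for the 4 genes, coloured, and the 10 other named genes with the largest excess, grey, with the rank of each among 16883 genes. Nepn (6.40) and Fndc3c1 (5.05) stand above the rest, and Nefl is the lowest shown at 1.98.

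The 4 genes were alike in being high at e10.5, which is what they were chosen for. Over the 15 arrays Nepn and Fndc3c1 correlated at 0.98, whereas over the 12 later arrays, where both were dim, the value was -0.19. Nepn with Nefl gave 0.68 and 0.62, the pair most alike in the later arrays. Nepn with Cysltr2 gave 0.83 and -0.37, and Fndc3c1 with Cysltr2 0.86 and 0.16. Nefl correlated with Fndc3c1 at 0.59 and -0.29, and with Cysltr2 at 0.34 and -0.48. Points of a group share a cell type and an age, so these values are descriptions. By the same measure over all genes, the 3 genes most like Nepn were Lin28b, Fndc3c1 and Adcy8, an adenylate cyclase, all at 0.98, and in the 12 later arrays they stood at -0.38, -0.19 and 0.48. Most like Fndc3c1 was Lin28b (1.00, and 0.75 in the later arrays). Lin28b levels were 10.66, 10.20 and 10.12 at e10.5 and between 5.74 and 6.29 in all later arrays. Both genes lay below the filter level of 6.83 in all later arrays, so the 0.75 is between dim values. Most like Cysltr2 were Chsy3 (0.93), Arid3b (0.92) and Ust (0.91), of which Chsy3 and Ust encode enzymes of chondroitin sulfate synthesis and sulfation. For Nefl they were the teneurin Tenm3 (0.97), Ftsj1 (0.95) and Igsf21 (0.95), and in the 12 later arrays the values were 0.95, 0.94 and 0.94.

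The positions of the genes showed a relation between their families. In the RefSeq order of coding genes on GRCm38.p6, Fndc3c1 lies next to Cysltr1 on chromosome X, with 0 coding genes between them, and Cysltr2 lies on chromosome 14 with 1 coding gene between it and Fndc3a. Each chromosome thus carries a neighbourhood with an Fndc3 gene, a Cysltr gene and, within 4 coding genes of the member, a lysophosphatidic acid receptor gene, Lpar4 on X and Lpar6 on 14. In the X neighbourhood Fndc3c1 was the gene with the high e10.5 signal (excess 5.05), with Cysltr1 at -0.43 and Lpar4 at 0.24. In the chromosome 14 neighbourhood it was Cysltr2 (2.61), with Fndc3a at -0.48 and Lpar6 at -0.21. Nefl and Nefm are adjacent on chromosome 14, and Nefm had an excess of -0.11.

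Of the 24 measured coding neighbours, 3 on each side of each gene, 5 had e10.5 arrays above all others, against 4.55% of all genes, and their excess ran from -1.31 to 0.94. Among these 5, 3 were the neighbours on 1 side of Nepn on chromosome 10. Gopc, a Golgi protein, had an excess of 0.69, Dcbld1 of 0.19 and the receptor tyrosine kinase Ros1 of 0.94. The 3 neighbours on the other side, Nus1, Slc35f1 and Cep85l, had -0.39, -0.17 and -0.99. The remaining ones were the glycolytic enzyme Pgk1 near Fndc3c1 (0.47) and Rcbtb2 next to Cysltr2 (0.47).

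**Figure D4:**
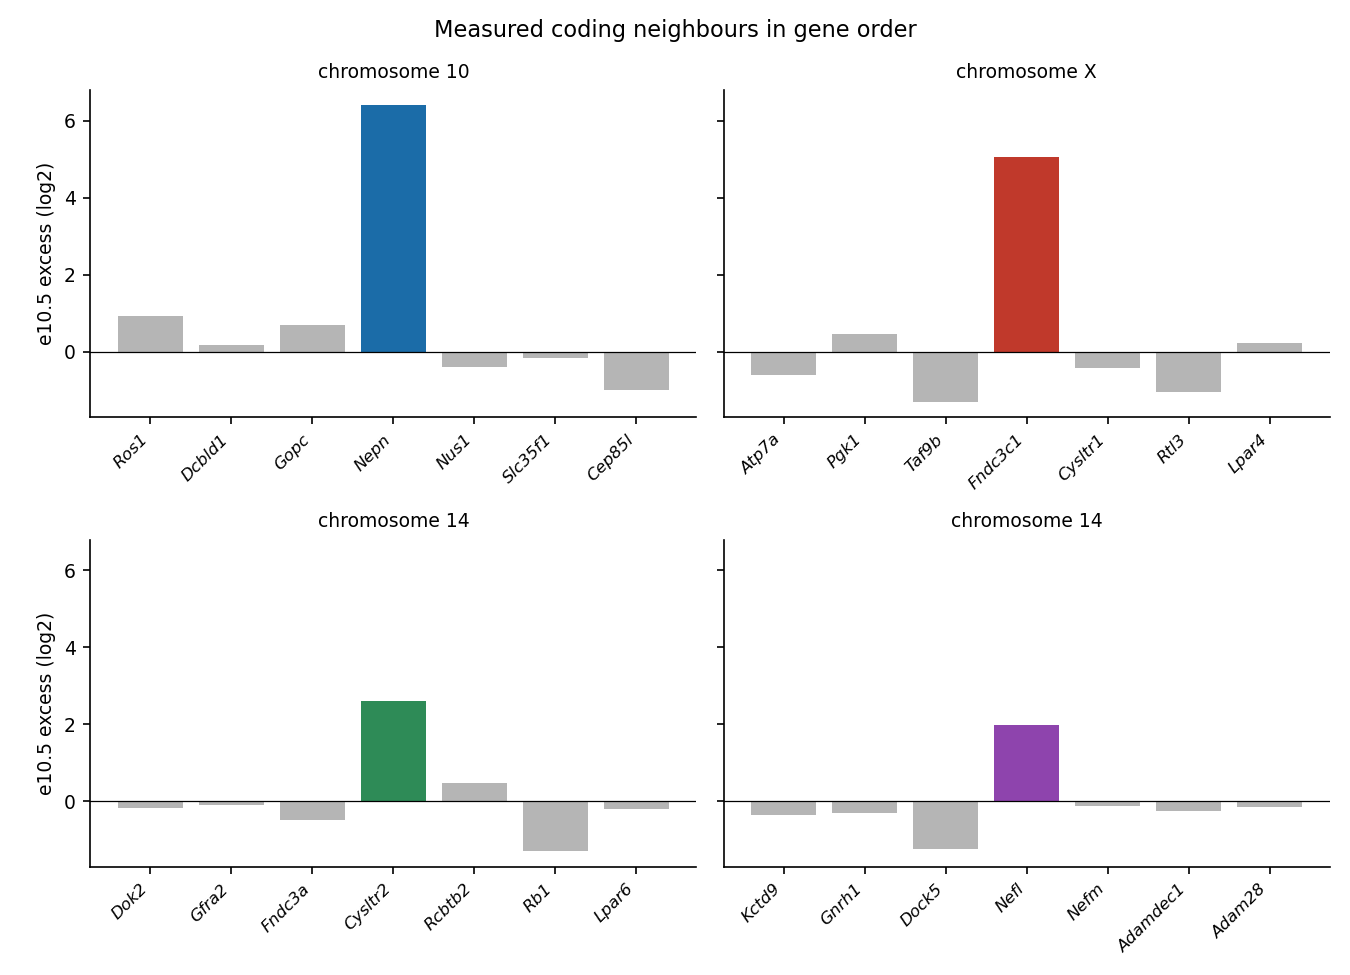
Excess at e10.5 in log2 units (bars from 0) for each gene, coloured, and the 3 nearest measured coding genes on either side, grey, in the order of the RefSeq annotation. Grey bars run from -1.31 to 0.94, and the bars of Ros1, Dcbld1 and Gopc before Nepn are all above 0.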

How the data were processed

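The deposited values are linear array intensity values per probe set, which the authors obtained with PLIER. The submitters' processing notes name Affymetrix Expression Console 1.1 as the software. A normalization step between arrays is not stated in the labels. Array medians ran from 165.5 to 211.7. Per the labels' protocols, NuGEN Ovation amplification of 20 ng of RNA per sample came before labelling.

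Of 35557 probe sets, the 21789 with 1 gene in the platform annotation were used, and the one with the highest mean over 15 arrays stood for each of 19938 genes. Genes above 97.8, the 30th percentile, in at least 3 arrays were kept (16883). Values were transformed to log2(intensity + 16), and limma was fitted once to the 15 arrays, with 5 group means. A gene passed at a Benjamini-Hochberg adjusted p under 0.05 over all 16883 genes. The fit was tested on simulated data.

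The 4 genes, the gene lists and the motifs were chosen with earlier results of these data known. Named genes were the 4, Sox9, Neurog3, the 3 most correlated with each, the 10 others with the largest e10.5 excess, 3 measured neighbours per side, every tested gene of a family or pathway list, and up to 5 called genes or the defining markers of other lists. Siglecf and Ccr3 were named outside this rule. Clone and predicted names were left out. Alternatives were quantile normalization, median centring, offsets of 1 and 64, a median filter or none, averaged probe sets, the 2 groups alone, a replicate block and each array left out. A fit without the 3 arrays with Hbb-y above 9 was added after seeing the data. Tools were R 4.3.3, limma 3.58.1, Python 3.11.15, numpy 2.4.6, pandas 2.3.3 and matplotlib 3.10.9.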

Additional observations from a re-analysis of the deposited data

How the results depend on the processing

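The e10.5 excess stayed positive for the 4 genes in the 21 alternatives for which it was computed. The filter settings, the replicate block and the fits of 2 groups alone were not among them. The genes were chosen on these same arrays for being high at e10.5, so this adds no support. Shifts of the excess were set against the SD of a gene's 3 e10.5 arrays, which leaves out the spread of the other groups. Among the settings that keep all arrays or drop the globin-bearing ones, Fndc3c1 and Nepn moved by more than this SD. Fndc3c1 did so with offsets of 1 (5.43) and 64 (4.26) and without the globin-bearing arrays (4.94). The excess of Nepn did so with an offset of 64 (5.97). Leaving out 1 array in turn gave 6.17 to 6.59 for Nepn, 4.93 to 5.10 for Fndc3c1, 1.91 to 3.06 for Cysltr2 and 1.75 to 2.10 for Nefl. By the same measure the excess moved for Fndc3c1 without Sox9-GFP+ p23 array 3 and for Cysltr2 without GFP- array 1 or 3. It also moved for Nefl without Ngn3-GFP+ array 1 or 2. The SD in the group that lost an array was larger, at 0.3 for Fndc3c1, 1.22 for Cysltr2 and 0.68 for Nefl. Of the member differences, that of Fndc3c1 between the p23 sorts turned sign after quantile normalization (-0.07), median centring (-0.09) and when 1 array was left out (-0.12 to 0.18). That of Nefl between the e15.5 sorts ran from -0.27 to 0.35 when 1 array was left out. The fall of Nefm by e15.5 missed the threshold with an offset of 1 (-1.23, adjusted p = 0.0536 by limma).

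Counts of called genes depended on the processing. From e10.5 to e15.5 there were 4754, against 2835 after quantile normalization, 7149 in the 2 groups alone, 2673 without the globin-bearing arrays and 1840 to 5952 when 1 array was left out. The share of rises was 43.3%, and 58.2% with a filter at the median. Between the e15.5 sorts 7034 were called, against 4127 after quantile normalization and 3757 to 6839 with 1 array left out. From e10.5 to p23 the count of 6916 became 3559 without the globin-bearing arrays. Between the p23 sorts 59.6% of calls were higher in Sox9-GFP+ cells, and 44.6% after median centring. The causes were not tested. Replicate numbers were not used as pairs in the main fit. From e15.5 to p23, deviations of same-numbered Sox9-GFP+ arrays from their group means correlated weakly, at 0.16, 0.03 and 0.20. These values were above the highest for arrays of other numbers (-0.02, 0.01 and -0.01). Between the p23 sorts the same-numbered values were 0.11, -0.12 and -0.03. From e10.5 to p23 they were -0.44, -0.02 and -0.49, with highest values for other numbers of 0.43, 0.09 and 0.48. From e10.5 to e15.5 they were -0.15, -0.16 and -0.21, and between the e15.5 sorts -0.18, 0 and 0.04. Deviations from a group mean are not independent, so these values are tied to each other. With a replicate block the counts were 3695, 6505, 9124, 6246 and 5737 in the 5 comparisons, and the block changed no call of the 4 genes. Dim signal limits Fndc3c1, Nepn and Cysltr2 in later cells, where values lie near or below the filter intensity. Array number limits small differences.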
